A study of Mus musculus with 2 samples.

Results

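The CpG-dense H3K4me3 regions shared by a wild-type and an Lsh-deficient mouse fibroblast line numbered 2330 of the 11797 H3K4me3 regions on chromosomes 1 to 19 (19.8%). They were chosen by measured values of the same libraries. In each library, deposited 200 bp windows with at least 6 reads were joined across gaps of up to 1000 bp and kept with at least 20 reads. Overlapping stretches of the 2 libraries were then merged. A merged region was selected when it held a stretch from each library, was under 4000 bp wide and had an observed over expected CpG ratio (CpG o/e) of at least 0.8. The CpG o/e is the frequency of CG dinucleotides divided by the product of the frequencies expected for C and for G at the same GC content, here read from the bases of the reads in the region. Of 9907 shared regions under 4000 bp, 23.5% met the CpG threshold.

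Trimethylation of lysine 4 of histone H3 (H3K4me3) was profiled by chromatin immunoprecipitation and sequencing in mouse embryonic fibroblast (MEF) lines, 1 library per genotype. The groups were WT (Lsh+/+) and Lsh_KO (Lsh-/-), the latter labelled as lacking both working copies of Lsh, also called Hells. From 20000000 cells per line, chromatin was digested to mononucleosomes with micrococcal nuclease, pulled down with an Abcam antibody, amplified for 20 cycles and size-selected at 200 to 400 bp. No input library was used here, and the labels name no clones, animals or ages. With 1 library per genotype there is no replicate check, so every comparison describes these 2 libraries, and the lines, lanes and genotypes cannot be told apart.

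CpG-dense promoters are the classical CpG islands of the mammalian genome. Their cytosines are kept free of methylation in most tissues, and proteins with a CXXC domain, such as Cfp1 of the SETD1 complex, bind unmethylated CG and bring H3K4 methyltransferases to them. Lsh belongs to the SNF2 family of remodelling ATPases, and cells without it lose DNA methylation, chiefly at repeats and silenced sequence. The comparison addresses whether the mark at the promoters richest in CG differs between the lines.

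The sequences below show what such promoters look like. Each is the stretch of 250 bases before the annotated start of a gene whose promoter was placed in a CpG-dense region, from RefSeq on build GRCm38.p6, written 5′ to 3′ in the direction of the gene, with every CG dinucleotide in capitals. Tmem267 and Tesc are shown for regions called higher in Lsh_KO, Pdf and Arhgap20 for regions called lower. Mto1 is shown for one of the highest CpG o/e values, Rnaseh2c for the most reads per kb, and Dnmt3b and Srsf1 for gene groups described later.
Tmem267: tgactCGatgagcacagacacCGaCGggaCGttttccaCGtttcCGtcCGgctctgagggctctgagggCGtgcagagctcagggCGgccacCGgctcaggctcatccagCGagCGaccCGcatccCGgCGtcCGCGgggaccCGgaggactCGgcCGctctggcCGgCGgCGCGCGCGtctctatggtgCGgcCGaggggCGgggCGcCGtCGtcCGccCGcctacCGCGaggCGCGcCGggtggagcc
Tesc: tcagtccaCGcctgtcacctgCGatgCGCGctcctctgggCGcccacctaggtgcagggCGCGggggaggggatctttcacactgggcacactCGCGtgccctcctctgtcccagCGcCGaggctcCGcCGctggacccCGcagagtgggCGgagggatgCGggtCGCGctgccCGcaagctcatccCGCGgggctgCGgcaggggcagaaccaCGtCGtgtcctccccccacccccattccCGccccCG
Pdf: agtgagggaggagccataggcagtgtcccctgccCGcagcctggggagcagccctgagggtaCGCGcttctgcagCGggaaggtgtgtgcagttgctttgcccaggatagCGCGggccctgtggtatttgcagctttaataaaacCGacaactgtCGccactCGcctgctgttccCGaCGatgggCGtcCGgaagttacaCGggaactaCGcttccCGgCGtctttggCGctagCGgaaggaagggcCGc
Arhgap20: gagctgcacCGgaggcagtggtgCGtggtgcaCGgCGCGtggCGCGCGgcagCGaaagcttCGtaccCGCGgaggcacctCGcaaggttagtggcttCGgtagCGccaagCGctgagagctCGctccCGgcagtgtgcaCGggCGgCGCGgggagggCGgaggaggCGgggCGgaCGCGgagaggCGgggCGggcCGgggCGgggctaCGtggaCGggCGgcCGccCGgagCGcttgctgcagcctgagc
Mto1: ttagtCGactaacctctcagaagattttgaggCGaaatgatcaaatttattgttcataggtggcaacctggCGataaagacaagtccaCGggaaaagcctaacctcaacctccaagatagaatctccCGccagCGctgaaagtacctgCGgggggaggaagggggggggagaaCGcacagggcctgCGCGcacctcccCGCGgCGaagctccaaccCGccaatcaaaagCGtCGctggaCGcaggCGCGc
Rnaseh2c: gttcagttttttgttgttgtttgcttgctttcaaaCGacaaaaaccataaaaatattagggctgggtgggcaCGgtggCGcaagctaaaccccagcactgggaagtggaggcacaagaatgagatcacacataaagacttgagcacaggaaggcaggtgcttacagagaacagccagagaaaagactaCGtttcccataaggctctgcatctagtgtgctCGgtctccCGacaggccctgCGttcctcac
Dnmt3b: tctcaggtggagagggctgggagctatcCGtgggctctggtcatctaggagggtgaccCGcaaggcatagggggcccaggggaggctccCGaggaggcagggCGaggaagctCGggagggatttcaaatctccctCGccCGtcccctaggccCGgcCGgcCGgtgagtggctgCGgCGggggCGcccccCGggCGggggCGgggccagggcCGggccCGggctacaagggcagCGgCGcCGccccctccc
Srsf1: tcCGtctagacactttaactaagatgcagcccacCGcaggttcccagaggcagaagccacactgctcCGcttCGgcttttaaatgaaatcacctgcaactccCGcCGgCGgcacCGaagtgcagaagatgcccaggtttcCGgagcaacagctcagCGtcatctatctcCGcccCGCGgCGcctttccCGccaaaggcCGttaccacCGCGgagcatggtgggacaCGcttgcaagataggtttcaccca

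On GRCm38.p6 these stretches lie at chr13:119488223-119488472 (plus strand, Tmem267), chr5:118027493-118027742 (plus, Tesc), chr8:107048615-107048864 (minus, Pdf) and chr9:51765101-51765350 (plus, Arhgap20). Those of Mto1, Rnaseh2c, Dnmt3b and Srsf1 lie at chr9:78447960-78448209, chr19:5601623-5601872, chr2:153649199-153649448 and chr11:88047123-88047372, all on the plus strand. The stretch of Tmem267 held 39 CG dinucleotides, that of Arhgap20 37 and that of Tesc 26. Pdf had 20, Dnmt3b 21, and Mto1 and Srsf1 19 each. Rnaseh2c had 7, so the CG that put its region above the threshold lay outside these bases. Across the 2088 promoters placed in CpG-dense regions the median was 23 CG dinucleotides (quartiles 16 and 30), against 6 (2 and 16) in all 32851 promoters of the table.

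Promoters were placed without a genome, by reads that matched RefSeq promoter sequences exactly over 25 bases, with at least 2 distinct reads agreeing. This placed 13241 promoters of 11425 genes. Of the 2330 CpG-dense regions, 1540 (66.1%) held a placed promoter, together of 1846 genes, and 301 of these 1540 (19.5%) held promoters of both strands. The share with a placed promoter was 68.2% in shared narrow regions with a CpG o/e of 0.6 to 0.8, 63.2% at 0.4 to 0.6 and 48.6% under 0.4. The RefSeq sequence of the placed promoters gave the same order of CpG content as the reads. These promoters were placed by exact matches to the same reads, so this order is no independent check of the selection. The median promoter CpG o/e was 0.89 in the CpG-dense regions, 0.81 at 0.6 to 0.8, 0.72 at 0.4 to 0.6 and 0.45 under 0.4, against 0.38 over the whole table.

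The selected regions had a median width of 1600 bp, a median CpG o/e of 0.87 and a median GC content of 61.3%. With each genome position counted once instead of once per read, 1662 of the 2330 still reached 0.8. The threshold cut through a continuous range. Just inside it, the regions of Zc3hav1, an antiviral zinc finger protein, and of Oscp1 both had a CpG o/e of 0.8001. Just outside lay the region shared by Mcm7, a subunit of the replicative helicase, and Ap4m1, at 0.80, and that of the centrosomal gene Cep72, at 0.7999. The region at Zc3hav1 held 138 WT and 180 Lsh_KO reads, and that at Mcm7 and Ap4m1 held 138 and 204.

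The CpG-dense regions held more reads in the Lsh_KO library, and how their level compares depends on the scaling. The median region held 46 distinct reads in WT (quartiles 32 and 66) and 69 in Lsh_KO (46 and 96), which is 30.3 and 45 reads per kb. Together they took 4.80% of the distinct reads of WT and 6.21% of those of Lsh_KO. After scaling, which set the median Lsh_KO over WT ratio of 2 kb windows marked in both libraries to 1, the median log2 ratio was 0.04, with the central 90% of regions between -0.62 and 0.62. These windows include the CpG-dense regions, so a median near 0 is fixed by the scaling. Scaled by total reads the median was 0.37, and scaled by background reads 0.54. Marked windows held 38.6% of Lsh_KO reads against 30.8% of WT reads. Without a spike-in, a higher level of the mark and a more efficient precipitation cannot be told apart, nor can fewer cells with the mark and less of it per cell.

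The ratio did not order the regions by CpG content. The median log2 ratio was 0.04 in the CpG-dense regions, 0.06 at a CpG o/e of 0.6 to 0.8, 0.07 at 0.4 to 0.6 and -0.04 under 0.4. The spread between regions was several times these differences: the quartiles of the CpG-dense regions were -0.19 and 0.26. Within the CpG-dense regions, the 900 with a CpG o/e of 0.80 to 0.85 had a median of 0.04 and the 172 at 1.0 or above a median of 0.02. In density per length, the CpG-dense regions stood below those of intermediate CpG, with 30.3 WT reads per kb against 33.8 at 0.6 to 0.8 and 34.0 at 0.4 to 0.6. In Lsh_KO the same values were 45, 50 and 50.6.

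The stretch called from Lsh_KO was the longer of the 2 in 1427 CpG-dense regions, that from WT in 276, and they were equal in 627. Their median lengths were 1400 and 1200 bp. The imbalance was not particular to the CpG-dense regions. In the 4784 shared narrow regions with a CpG o/e of 0.6 to 0.8 the same counts were 2962, 607 and 1215. In the 2242 at 0.4 to 0.6 they were 1348, 333 and 561. The Lsh_KO library was deeper, with 2790374 distinct reads against 2471771, and the window threshold was the same for both. It also had more of its reads in marked windows, 38.6% against 30.8%. The part of depth and of this share in the difference of lengths was not tested.

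Individual CpG-dense regions seldom differed beyond 2-fold. The rule for a call asked for a scaled ratio of 2-fold or more, a 95% interval (exact Clopper-Pearson, on the 2 counts) without 1, and no fewer than 20 reads in both libraries together. Of 2328 regions with enough reads, 23 were called higher in Lsh_KO (0.988%, interval 0.627 to 1.48%) and 28 lower (1.20%, 0.801 to 1.73%). These intervals of shares count regions as independent, which they need not be, and do not measure variation between lines. Over all 11470 regions tested the shares were 2.87% higher and 3.89% lower. That background includes regions found in 1 library only, which the selection left out. Among the other 7576 shared narrow regions, of lower CpG, 0.990% were higher and 1.54% lower, close to the shares of the CpG-dense ones. Scaled by total reads, 89 CpG-dense regions (3.82%) were higher and 6 (0.258%) lower, against 7.24% and 2.48% of all regions, so the balance of higher and lower calls depends on the scaling.

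**Figure D1:**
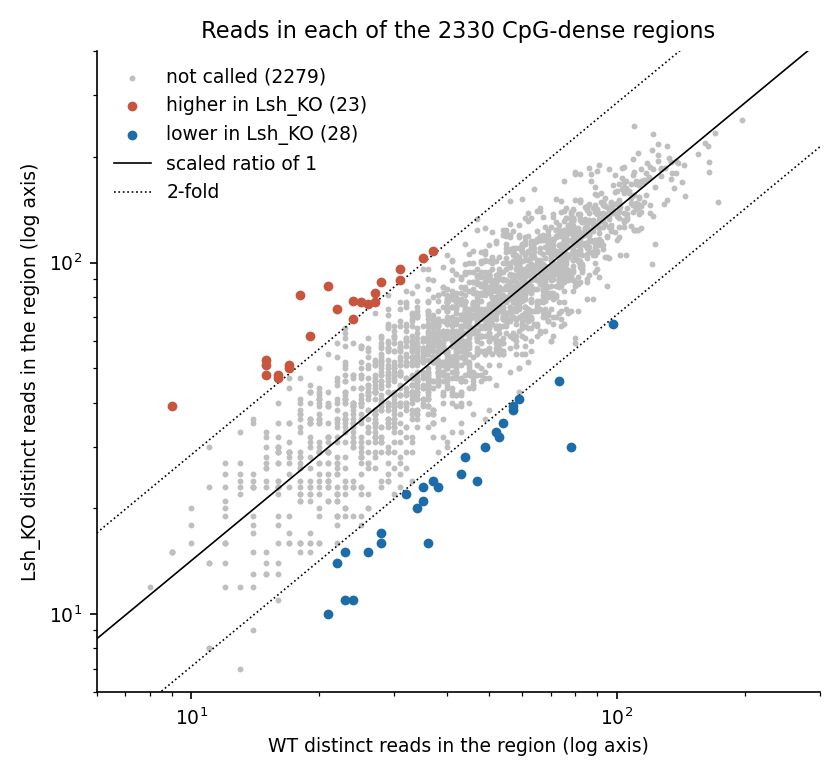
Distinct reads in WT (x axis) and Lsh_KO (y axis) for each of the 2330 CpG-dense regions, on log axes, with the scaled ratio of 1 as a solid line and 2-fold as dotted lines. The 23 regions called higher and the 28 called lower in Lsh_KO lie at the edges of a continuous cloud.

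Among the regions called higher in Lsh_KO, the leading one lay at chromosome 13, 120606601 to 120609400 (mm8, as all region positions here). It held the promoters of Tmem267, which encodes a transmembrane protein, and of 3110070M22Rik on the opposite strand, whose reads cannot be split between them. It held 18 reads in WT and 81 in Lsh_KO, or 6.43 and 28.9 per kb, a scaled ratio of 3.17 (95% interval 1.88 to 5.61). Of its reads, 26.8% carried a mismatch to the reference, against a median of 16.9% over the CpG-dense regions. At Tesc, which encodes the calcium-binding protein tescalcin (chromosome 5, 118288401 to 118290400), there were 22 and 74 reads, a ratio of 2.37 (1.45 to 4.00).

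Dusp28, a dual-specificity phosphatase gene, had 9 and 39 reads, a ratio of 3.05 (1.45 to 7.16). Ptpn4, a tyrosine phosphatase gene, had 28 and 88, a ratio of 2.21 (1.43 to 3.52). The promoter of 4833420G17Rik had 31 and 96, a ratio of 2.18 (1.44 to 3.38). Its region lies on chromosome 13 at 120581201 to 120582600, close to that of Tmem267. The other 3 leading regions, at chromosome 18 from 58334401 and from 58003001 and at chromosome 13 from 9092601, held no placed promoter and had ratios of 2.88, 2.05 and 2.29.

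The remaining regions called higher were read only after their values were seen. Those with a placed promoter were Fam3c, which encodes a secreted cytokine-like protein (25 and 77 reads), Dhrs13 with its antisense gene (15 and 53), Zfp784 (15 and 48), Dtd1 (16 and 48), Gm9929 (27 and 77), Tsfm (16 and 47) and Metap1d (17 and 50). Tsfm encodes a mitochondrial translation elongation factor, and Metap1d an aminopeptidase that removes the first methionine from mitochondrial proteins. In all 7, the scaled ratio lay between 2.01 and 2.49.

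The leading region called lower in Lsh_KO was the promoter of Pdf at chromosome 8, 109937001 to 109938200, with 78 reads in WT and 30 in Lsh_KO, or 65 and 25 per kb. Its level was 3.69-fold lower in Lsh_KO (95% interval 2.40 to 5.83). Pdf encodes the mitochondrial peptide deformylase, which removes the formyl group from the first methionine of proteins made in mitochondria. Of all called CpG-dense regions it was the only one whose interval lay wholly beyond 2-fold. The region of Arhgap20, together with Gm40520 on the opposite strand, had 47 and 24 reads and was 2.78-fold lower (1.67 to 4.76).

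Syk, the gene of a tyrosine kinase of immune receptor signalling, had 24 and 11 reads, a 3.10-fold lower level (1.46 to 7.01). Mb21d2 had 73 and 46 reads and Scaf4, which encodes a factor that binds the RNA polymerase II tail, had 98 and 67, both on chromosome 16 and 2.26-fold and 2.08-fold lower. Regions with no placed promoter at chromosome 10 from 12780601, chromosome 17 from 86661001 and chromosome 13 from 45400201 were 3.20-fold, 2.35-fold and 2.44-fold lower.

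The other regions called lower were also read after their values were seen, and 17 of them held a placed promoter. Bmp6, a bone morphogenetic protein, had 49 WT and 30 Lsh_KO reads, and Grem1, a secreted antagonist of such proteins, had 57 and 39. Scube3 (54 and 35), Svep1 (38 and 23) and Vwa2 (23 and 11) encode secreted or matrix proteins. Spint1, a protease inhibitor, had 28 and 16 reads, and Pcsk6, a proprotein convertase, 26 and 15. Hcn4, the pacemaker channel, had 44 and 28. The rest were Osbpl6, Kif17, Fam43a, Zbtb42, Prkaa2, Hebp1, Tpd52l1, Rgcc and Cds1. These are single regions, and no group of them was tested.

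The deposited window lists held more reads than the aligned lists. Window counts less the distinct aligned reads, called further reads here, give a second count of the same libraries. Repeats of counted reads were not subtracted and may be among the further reads, so the 2 counts may partly overlap. The second count is not a second sample. The selection of the regions used the window lists that hold these reads, so the values are a description. In them, 21 of the 23 regions called higher were again above 1 and 4 reached 2-fold, while all 27 of the 28 regions called lower that had enough further reads were below 1 and 13 reached 2-fold. Of the 2321 CpG-dense regions with enough further reads, called or not, 71.7% had ratios on the same side of 1 in both counts. At Tmem267 the further reads were 12 in WT and 73 in Lsh_KO, and at Pdf 79 and 27. At Dusp28 they were 16 and 18, a log2 ratio of -0.33, and at Dhrs13 23 and 26, a log2 ratio of -0.32. The sizes of the higher calls were smaller in the second count, with a median log2 ratio of 0.82 against 1.12. The lower calls had -0.96 against -1.21. The calls were chosen as extremes of the first count, a choice that favours smaller sizes in the second.

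The regions with the most reads per kb were ranked by the lower of their 2 scaled levels, which favours ratios near 1, so their ratios are a description. By the level in the library where it was lower after scaling, Rnaseh2c, a subunit gene of the RNase H enzyme that removes RNA from DNA, was the densest of the named ones with 79 reads per kb in WT and 106 in Lsh_KO. Arl6ip4 had 83 and 98, Zfp398 72 and 96, Gm35824 71.7 and 100, and Cenpt, a kinetochore gene, 70 and 95. With the 3 of the 8 that had no placed promoter, the scaled ratios ran from 0.83 at Arl6ip4 (0.61 to 1.13) to 1.15 at chromosome 8 from 87139201 (0.76 to 1.77). The interval of each of the 8 included 1.

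At the other end of the CpG scale, the 2 highest values of CpG o/e, 1.36 and 1.31, belonged to small regions without a placed promoter. Of the first, at chromosome 6 from 103614601, 63.2% of reads carried a mismatch and the GC content was 36.8%, which goes against the GC-rich composition of a CpG island. With a placed promoter, the highest were Metap1d at 1.29 and Mto1, which encodes an enzyme that modifies mitochondrial tRNAs, at 1.27. Mto1 held 46 WT and 70 Lsh_KO reads, a ratio of 1.07 (0.73 to 1.59). Metap1d was called higher, as given above, from a region of only 400 bp.

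Around the start sites the reads drew the familiar promoter pattern of a gap flanked by positioned nucleosomes. In 1181 CpG-dense regions with promoters in 1 direction, the read density was lowest 40 bp before the start, at 11.5 reads per kb in WT and 16.4 in Lsh_KO. It rose to a first maximum 140 bp after the start (58.7 and 75.9), fell to a trough at 240 bp (37.9 and 47.6) and reached a second maximum at 330 bp in WT and 340 bp in Lsh_KO (49.2 and 63.1). Upstream the maximum lay 230 bp before the start in both lines (28.9 and 44.2). The positions of the nucleosome-sized maxima were thus the same in both libraries to within 10 bp. Since a promoter was placed by reads that lie within its 300 table bases, the profile close to the start is partly shaped by that choice.

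The heights did not keep the same ratio along the promoter. The first maximum over the gap was 5.10 in WT and 4.63 in Lsh_KO. The upstream maximum reached 49.2% of the first downstream one in WT and 58.3% in Lsh_KO. In scaled log2 ratios, Lsh_KO stood lower from 50 to 200 bp after the start, at -0.12 (95% interval -0.16 to -0.08), and from 200 to 500 bp, at -0.11 (-0.14 to -0.08). It stood higher from 800 to 1200 bp, at 0.12 (0.08 to 0.17), and from 500 to 250 bp before the start, at 0.16 (0.11 to 0.21). Lsh_KO thus had relatively more reads on the flanks and fewer at the first nucleosomes. The GC content of the WT reads moved with this, from 69.1% at 50 to 200 bp to 53.9% at 800 to 1200 bp. Its part in the result was not tested.

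**Figure D2:**
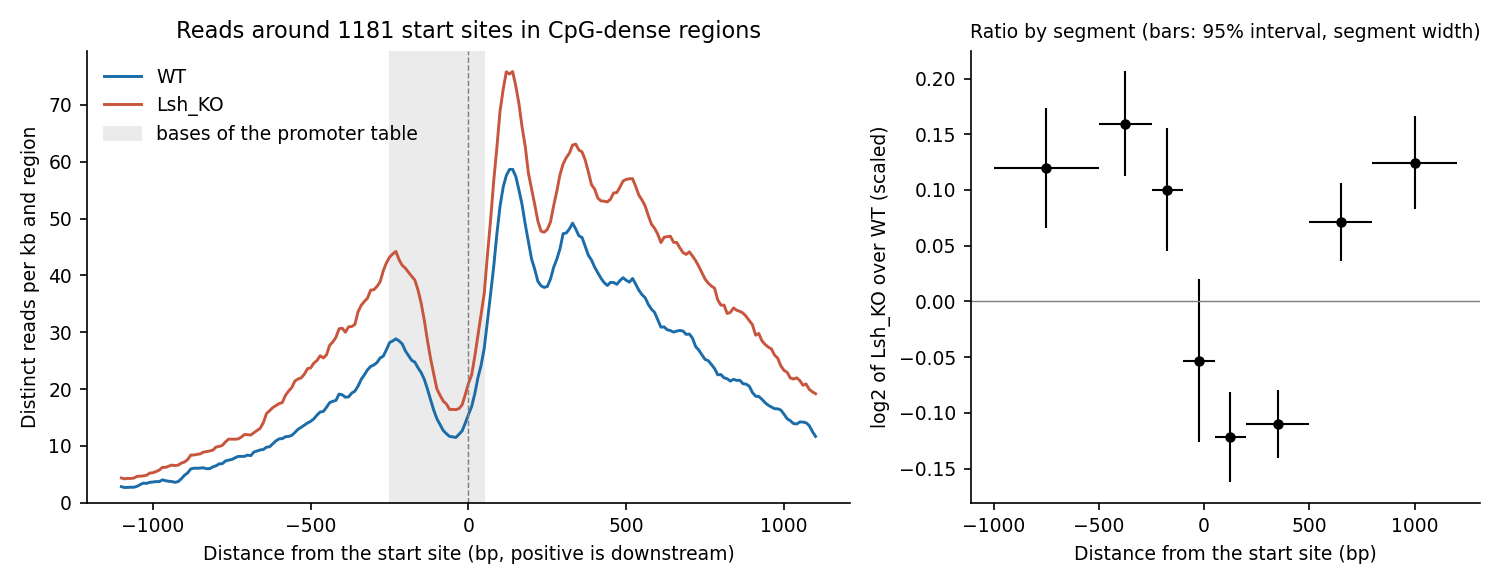
Left, distinct reads per kb and region around 1181 start sites in CpG-dense regions for WT and Lsh_KO, unscaled, with the bases covered by the promoter table shaded. Right, the scaled log2 ratio of Lsh_KO over WT in 8 segments, with 95% counting intervals as vertical bars and the segment width as horizontal bars. The segments from 50 to 500 bp lie below 0. That from -100 to 50 bp lies at -0.05 with an interval that includes 0, and the others lie above 0.

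The positions of the maxima were similar at promoters of lower CpG, and the ratios were so only in part. In 2484 regions with a CpG o/e of 0.6 to 0.8, the first maximum also lay at 140 bp, with 68.04 reads per kb in WT and 90.2 in Lsh_KO, and the segment from 50 to 200 bp had a log2 ratio of -0.08 (-0.11 to -0.06), that from 200 to 500 bp -0.03 (-0.05 to -0.02). In 1127 regions at 0.4 to 0.6 the maximum was at 140 bp as well, at 72.2 and 97.3, and the log2 ratio -0.04 (-0.08 to -0.01), but from 200 to 500 bp it was 0.01 (-0.02 to 0.04). The maximum over the gap was lower in the CpG-dense promoters than in either class, at 5.10 in WT against 6.26 and 7.37. In the 294 CpG-dense regions with promoters in both directions, the upstream maximum was 70.8% of the first downstream one in WT and 73.0% in Lsh_KO, and the intervals of the log2 ratio from 50 to 200 bp (-0.11 to 0.04) and from 200 to 500 bp (-0.06 to 0.06) included 0.

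Among the CpG-dense regions, the ratio was lower the higher the GC content, except in the lowest band. The median log2 ratio was 0.39 in the 28 regions of 45 to 50% GC, 0.28 in the 209 of 50 to 55% and 0.13 in the 677 of 55 to 60%. It was -0.01 in the 860 of 60 to 65%, -0.13 in the 456 of 65 to 70% and -0.24 in the 88 of 70% and over. The 12 regions under 45% GC did not follow, at -0.39. Shared narrow regions of lower CpG showed the same fall, from 0.32 at 45 to 50% to -0.15 at 65 to 70%. The second count from the further reads gave 0.35 at 45 to 50% and -0.35 at 70% and over in the CpG-dense regions.

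Most calls fell along this line. Of the 23 regions called higher, 16 had a GC content under 60%, and of the 28 called lower, 27 had 60% or more. Their median GC contents were 55.9% and 64.3%, against 61.3% over all CpG-dense regions (quartiles 57.8% and 64.7%). Of the regions tested at 50 to 55% GC, 4.31% were called higher and 0% lower. At 55 to 60% the shares were 0.74% and 0.15%, at 60 to 65% 0.35% and 1.86%, and at 65 to 70% 0.88% and 1.98%. In the smaller bands they were 7.14% and 0% of 28 regions at 45 to 50%, and 0% and 2.30% of 87 at 70% and over. None of the 12 regions under 45% was called. Pdf had 67.1%, Arhgap20 69.9% and Hcn4 72.7%, while Fam3c had 55.9% and Zfp784 54.7%. Some leading higher calls had 60% or more: Tmem267 60.8%, Tesc 66.4%, Dusp28 68.8% and the region at chromosome 18 from 58334401 66.9%. In all, 7 higher calls had 60% or more, and 1 lower call had under 60%.

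GC content was read from the same reads as the ratio, so the source of the GC value was varied. The difference between regions under 55% and regions of 65% or more was 0.42 with the reads of both libraries, 0.36 with GC from the WT reads only and 0.39 from the Lsh_KO reads only. With the GC content of the RefSeq promoter in place of the reads the difference was 0.01, over 208 and 814 of the 1540 regions with a placed promoter. Those promoter sequences cover 300 bases and the regions had a median width of 1600 bp, and over the CpG-dense regions that difference was 0.01. In bands of promoter GC the medians were 0.24 in 17 regions under 45%, -0.07 in 61 at 45 to 50% and -0.03 in 515 of 70% and over. In the shared narrow regions of lower CpG the medians fell in every band of promoter GC, from 0.21 under 45% to 0.02 at 70% and over.

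**Figure D3:**
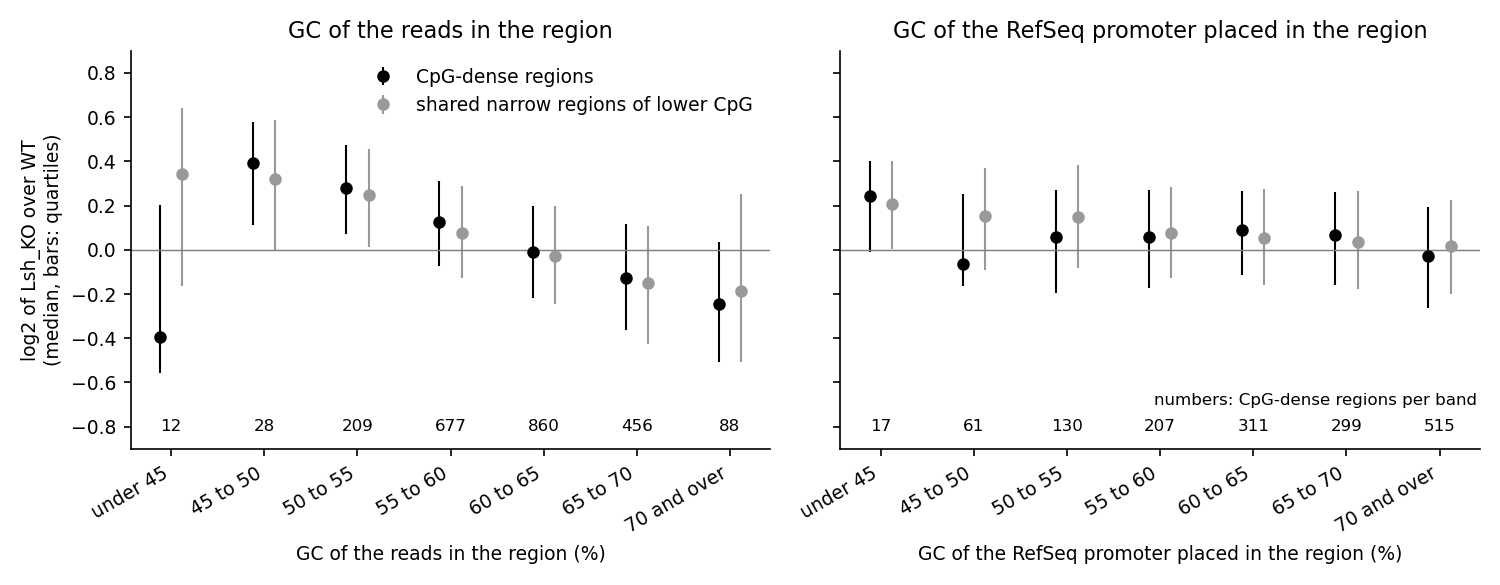
Median scaled log2 ratio of Lsh_KO over WT, with quartiles as bars, in bands of GC content taken from the reads in the region (left) or from the RefSeq promoter (right), for the CpG-dense regions (black) and the shared narrow regions of lower CpG (grey). On the left the medians of the CpG-dense regions fall from 0.39 at 45 to 50% to -0.24 at 70% and over, and on the right they lie between -0.07 and 0.24 with no steady fall, while those of the regions of lower CpG fall from 0.21 to 0.02.

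The libraries also differed in GC content outside these regions. Reads in the CpG-dense regions had a mean GC content of 61.8% in WT and 59.5% in Lsh_KO, reads in other regions 59.0% and 57.3%, and reads outside all regions 48.1% and 47.0%. Within the CpG-dense regions, reads under 36% GC were relatively more frequent in Lsh_KO (log2 ratio 0.56, 95% interval 0.50 to 0.62) and reads of 84% and over less frequent (-0.32, -0.36 to -0.27). Outside all regions the same values were 0.31 (0.30 to 0.32) and -0.18 (-0.29 to -0.08). Each library was sequenced in its own lane of 1 run, per the read lists, so library, lane and line cannot be told apart, and the part of each in the fall with GC was not tested.

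The ratio differed between chromosomes, and so did that of reads outside the marked windows. The median log2 ratio of the CpG-dense regions was 0.45 on chromosome 18 (75 regions) and -0.28 on chromosome 16 (87 regions), and reads outside marked windows had ratios of 0.49 and -0.43 there. Of the 23 regions called higher, 6 lay on chromosome 18, and of the 28 called lower, 3 lay on chromosome 16. Each ratio was then divided by that of the background reads in its 5 Mb bin. The results were centred on the main median of all shared regions, 0.06. With this the 2 medians became -0.06 and 0.12. Then 12 of the 23 higher and 19 of the 28 lower calls still reached 2-fold. Tmem267 kept a log2 ratio of 1.27 and Pdf of -1.80, while Scaf4 went from -1.06 to -0.61 and Mb21d2 from -1.17 to -0.69. Copy number was not measured, and its part was not tested.

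**Figure D4:**
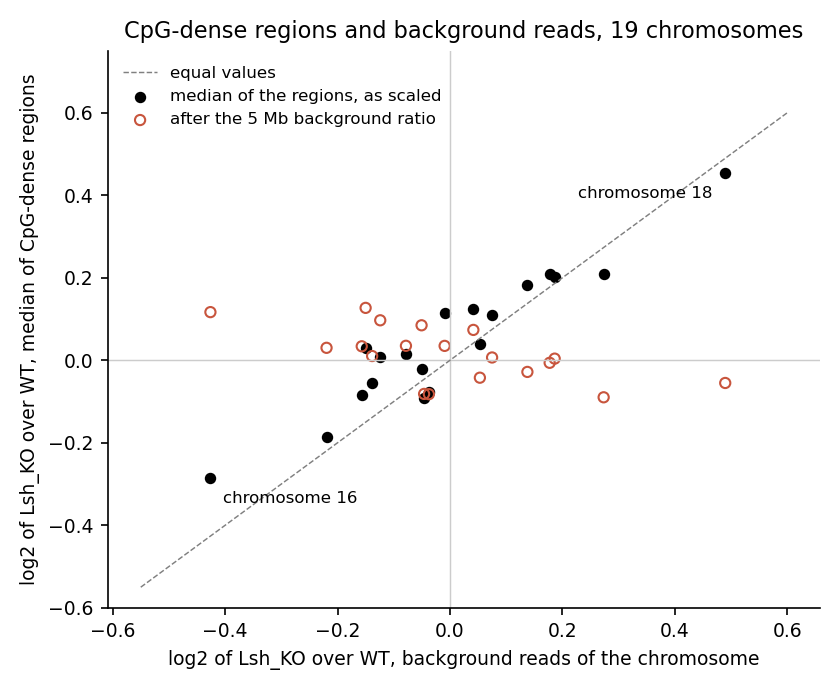
Median log2 ratio of the CpG-dense regions on each of the 19 chromosomes (y axis) against that of background reads of the chromosome (x axis). Black points are as scaled. Open circles are after division by the 5 Mb background ratio and centring on the main median of all shared regions. The black points run along the dashed line of equal values, with chromosomes 16 and 18 at its ends, and the open circles lie near 0.

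Gene families were spread unevenly over the CpG classes. Of 7714 genes with a promoter in a shared narrow region, 1846 (23.9%) were in the CpG-dense regions. For splicing factors the share was 18 of 44 genes (40.9%) and for mitochondrial ribosomal proteins 18 of 57 (31.6%). It was 6 of 44 (13.6%) for cytosolic ribosomal proteins, 27 of 224 (12.1%) for zinc finger genes and 2 of 31 (6.45%) for genes of respiratory complex I. Proteasome subunits, with 8 of 32 (25%), and translation initiation factors, with 9 of 34 (26.5%), stood near the overall share. These lists were drawn up with earlier results of these data known and are described without a test.

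Of the listed genes in the CpG-dense regions Zfp784 was called, beside shares of 0.988% higher and 1.20% lower over all CpG-dense regions, which says nothing particular about the families. The median log2 ratios of the lists drawn in the plot by gene list ran from -0.07 to 0.28, against 0.04 over all CpG-dense regions. The 18 splicing factor genes had a median of 0.08 with values from -0.17 to 0.69, and 15 of the 18 were above 0, against 53.9% of all CpG-dense regions. Their median GC content was 58.9%. In the band of 55 to 60% GC, 449 of all 677 CpG-dense regions were above 0, with a median of 0.13. Srsf1, which encodes a serine and arginine-rich splicing regulator, had 75 WT and 170 Lsh_KO reads (log2 ratio 0.67), and Hnrnpa0, an RNA-binding protein gene, 54 and 124 (0.69). Sf3b1, of the U2 snRNP, had 60 and 108 (0.34). Hnrnpk, with 119 and 174 (0.04), and Srsf7, with 107 and 160 (0.07), stood at the overall median, and Srsf11, with 42 and 53 (-0.17), below it. In the further reads Srsf1 had a log2 ratio of 0.31 and Hnrnpa0 of -0.03.

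The 6 cytosolic ribosomal protein genes had the highest median of the lists, 0.28, with a median GC content of 56.1%, a band (55 to 60%) in which all CpG-dense regions had a median of 0.13. Rpl15 had 96 WT and 185 Lsh_KO reads (0.44), Rpl35a, which shares its region with Iqcg, 76 and 134 (0.31), and Rps6 76 and 116 (0.10). Rpl34, with 85 and 111 (-0.12), was the one below 0. The 18 mitochondrial ribosomal protein genes had a median of 0.02, from -0.41 at Mrps18c (82 and 88 reads, with Helq on the opposite strand) to 0.71 at Mrpl55 (41 and 95).

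Of the 8 proteasome genes the median was 0.15, from -0.24 at Psmd5 (78 and 94 reads) to 0.56 at Psmd6 (45 and 94). The 6 aminoacyl-tRNA synthetase genes, whose enzymes load tRNAs with their amino acids, ran from -0.45 at Nars2 (46 and 48) and Yars2 (69 and 72) to 0.44 at Eprs (61 and 118). The 9 genes with the Eif prefix ran from -0.54 at Eif2b5 (45 and 44) to 0.35 at Eif2ak1 (38 and 69), an eIF2 alpha kinase. Of the replication genes, the origin recognition gene Orc2 had 37 and 89 reads (0.76) and Pcna, the sliding clamp, 60 and 112 (0.39). Rpa2, a single-strand DNA binding subunit, had 51 and 55 (-0.40).

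**Figure D5:**
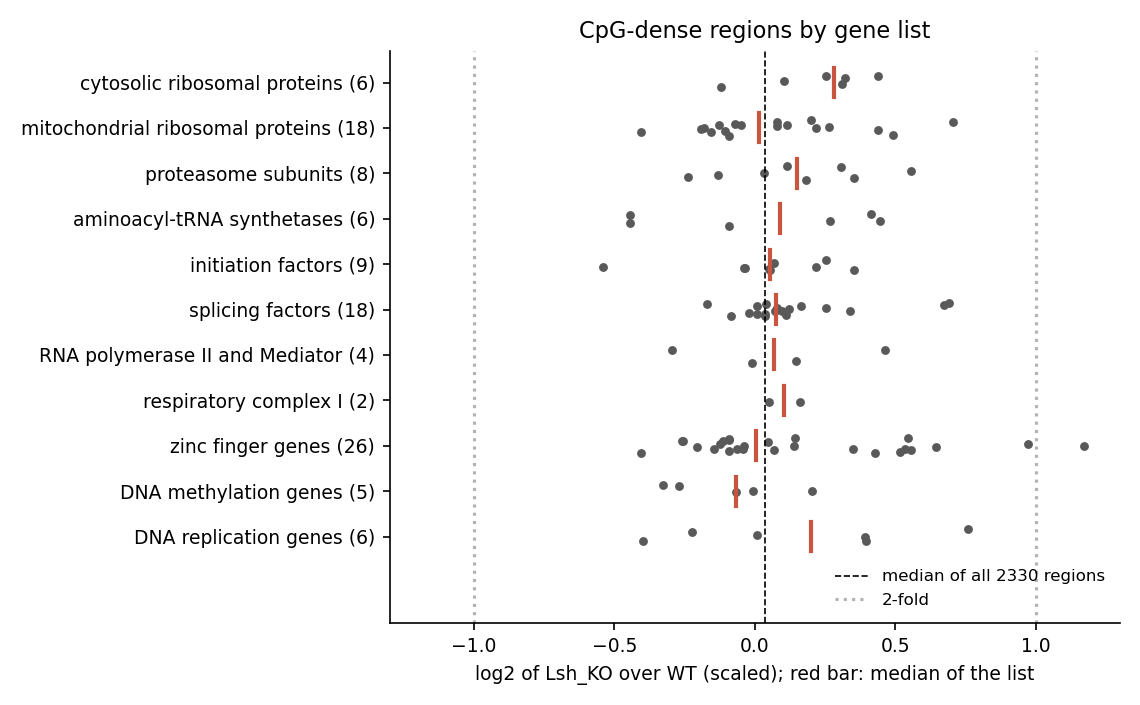
Scaled log2 ratio of Lsh_KO over WT for each CpG-dense region with a promoter of a listed gene (points, shifted vertically at random), with the median of each list as a red bar and the number of regions in parentheses. The dashed line is the median of all 2330 regions, and only 1 zinc finger gene, Zfp784, lies beyond the 2-fold line.

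DNA methylation genes are of interest in cells without Lsh. Of 10 such genes with a promoter in a shared narrow region, 5 were in the CpG-dense set. Dnmt3b, a de novo methyltransferase, had 30 WT and 34 Lsh_KO reads, a scaled log2 ratio of -0.33 with 68.2% GC. Dnmt3a, the other de novo enzyme, had 33 and 54 (0.20). Cdca7, whose product works together with Lsh, had 89 and 105 (-0.27). Uhrf2 had 108 and 153 (-0.0045) and Zbtb38, a reader of methylated DNA, 28 and 38 (-0.07). None was called.

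The promoter of the inactivated gene is no member of the set: the region at Hells, at chromosome 19 from 38995201, had a CpG o/e of 0.72 and held 89 WT and 131 Lsh_KO reads (log2 ratio 0.05). A promoter mark outside a deleted part of a gene does not check the deletion. Of the H3K4 methylation genes, 1 was in the CpG-dense set, the demethylase gene Kdm1a (44 and 55 reads, -0.19). Of the imprinted genes it was Grb10 (37 and 52 reads, -0.02). No Hox gene was in it, and none of 15 germline genes silenced by methylation had a placed promoter in a region of any class.

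The cell type was checked on markers over all regions, since none of the markers was in the CpG-dense set. Of 9 fibroblast markers in the promoter table, 5 had a placed promoter in a region: Col3a1, Vim, Twist1, Prrx1 and Fbn1. None of 3 blood, 4 pluripotency, 4 nerve and 3 muscle markers did. Of 4 epithelial markers Krt18 did, with 3 WT and 57 Lsh_KO reads, and of 2 endothelial markers Kdr, with 22 and 47. The lines thus differed at Krt18, and the part of cells of another kind in the results above was not tested.

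The promoter sequences were searched on both strands for 8 motifs, in the 300 bases of the table (250 before and 50 after the start). Shares are given of the 1846 genes in CpG-dense regions, of 5896 genes in the other shared narrow regions and of all 32851 promoters. The NRF1 core CGCATGCGC, bound by a factor of nuclear genes for mitochondrial proteins, was in 4.82% (95% interval 3.89 to 5.90), 3.70% (3.23 to 4.21) and 1.75%. The CRE forms TGACGTCA and TGACGCAA were in 4.93%, 4.39% and 2.26%. The GC box GGGCGG was in 71.7%, 69.7% and 35.7%, and the ETS motif CCGGAAG in 20.3%, 21.5% and 8.86%. The stretch of Pdf shown above holds the ETS motif and those of Tmem267, Tesc, Arhgap20, Dnmt3b and Srsf1 the GC box.

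The TATA and NFY boxes hold no CG. The TATA box TATAAA was in 4.50% of genes in CpG-dense regions, 4.88% of the others and 13.6% of all promoters. The NFY box, CCAATCA or CCAATGA, was in 10.7%, 13.8% and 11.6%, and Mto1 holds it. The YY1 motif AAGATGGCG was in 3.63% of both sets and the E-box CACGTG in 11.1% and 10.1%. The regions were chosen on CG and the letters of most of these motifs contain it, so the shares are a description. The median log2 ratio of CpG-dense regions whose promoter held the NRF1 core was 0.13 (89 genes) against 0.04 without it, and their median GC contents were 60.3% and 61.1%. Regions with the YY1 motif had -0.04 against 0.04, and with the CRE forms 0.09 against 0.04. All of these are small beside the spread between regions.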

How the data were processed

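The authors deposited, for each library, aligned 25-base reads and, separately, counts of reads per 200 bp window. The build was mm8, per the submitters' notes on processing. The deposited alignment score was not used as a filter, and other deposited fields used were position, strand, bases and match code. The aligner and the rule behind the window counts are not given in the sources used here. The deposited window counts only defined the regions and the second count of reads. WT held 2869399 aligned reads and Lsh_KO 3428628, of which 13.9% and 18.6% repeated a position and strand. Repeats were dropped, and each read was then shifted 75 bp downstream of its own strand.

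The scale factor, 1.42, was the median ratio over 18150 windows of 2 kb marked in both libraries, that is with at least 10 reads and 5 times background. By total reads it was 1.13, a log2 shift of 0.33 for every region. Intervals of ratios are exact conditional (Clopper-Pearson) 95% intervals of counting error only: PCR copies carry no molecular identifiers, so reads are not independent molecules. Intervals of shares are exact binomial 95% intervals over regions or genes, which are not replicates of a line. The calling rule was also run on simulated independent counts with known ratios. These held no PCR copies and no trend with GC content or chromosome, so calls under such effects went unchecked. Gene names come from exact matches of reads to RefSeq promoters (GRCm38.p6), and no coordinates were converted between builds.

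The members and lists were chosen with earlier results of these data known. Named are the 8 higher and 8 lower called regions with the interval bound farthest from 1, the 8 densest, the 2 of highest CpG o/e, the 2 nearest the threshold on each side, and those of listed genes. Lists covered cytosolic and mitochondrial ribosomal proteins, the proteasome, tRNA synthetases, initiation factors, splicing, RNA polymerase II and Mediator, complex I, zinc fingers, DNA methylation, H3K4 methylation, replication, Hox, germline and imprinted genes and cell type markers. RNA polymerase II and Mediator genes (4 in the set) had a median log2 ratio of 0.07. Alternatives covered scaling, repeated reads, read shift, thresholds, depth and chromosome-wide background. Software was matplotlib 3.10.9, scipy 1.17.1, pandas 2.3.3 and numpy 2.4.6 under Python 3.11.15.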

Additional observations from a re-analysis of the deposited data

How the results depend on the processing

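The number of CpG-dense regions was 1430 with a CpG threshold of 0.85, and between 2052 and 3491 under the other settings. The median log2 ratio moved from 0.04 to 0.37 with scaling by total reads and to 0.54 with scaling by background reads. It was 0.0652 in the deposited windows, 0.0139 in the further reads and 0.0178 with the 5 Mb background ratio. The further reads and the 5 Mb ratios were centred on the main median of all shared regions, which keeps these values near it by construction. The deposited windows were scaled by their own 2 kb windows, with a like effect. Under the other settings tried, which use the same reads, the median lay between 0.0291 and 0.0469. Calls numbered 89 higher and 6 lower with scaling by total reads, and 116 and 73 at 1.5-fold. All reads kept gave 57 lower, the deposited windows 14 higher and the 5 Mb background ratio 13 higher, of which 12 were among the 23. Apart from scaling by total reads, the share over all regions was not computed under these settings. Such counts therefore say nothing particular about the CpG-dense regions. The difference of medians between the CpG-dense and the other shared narrow regions, -0.03, was -0.05 both with all reads kept (-0.0488) and with the 5 Mb ratio (-0.0534). The difference between regions under 55% and of at least 65% GC, 0.42, was added after seeing the data. It was 0.51 with all reads kept, 0.49 in the further reads, 0.35 with the 5 Mb ratio and 0.01 with the GC of the RefSeq promoter (0.0094). The first maximum over the gap in the WT profile was 3.57 when reads were not moved. Except where a value above shows the cause by construction, the cause was not tested. No paired analysis was possible because each group has 1 library. Of the 16 leading called regions, Dusp28 changed direction in the further reads (-0.33) and none did under the other 4 alternatives, while 12 were called after scaling by total reads, 12 with all reads kept, 10 in the deposited windows, 7 in the further reads and 11 with the 5 Mb ratio. Depth limits single regions: a median region held 46 WT reads.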

Other observations

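A small group of CpG-dense regions held few placed promoters and had a low GC content. The 12 regions with a GC content under 45% held 1 placed promoter, that of Ccdc77, and a median of 42.3% of their reads carried a mismatch, against 16.9% over all CpG-dense regions. Their median width was 700 bp. At chromosome 14 from 18208801 both libraries held 91 reads, and at chromosome 9 from 2999801 they held 43 in WT and 42 in Lsh_KO. At chromosome 5 from 2999801 there were 165 and 193. After scaling, these 3 regions had log2 ratios of -0.51, -0.54 and -0.28. These regions were singled out after their values were seen, and without the regions where over 35% of reads carried a mismatch the CpG-dense set still had 23 higher and 28 lower calls.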
